A study of Mus musculus with 4 samples.

Results

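Vimentin and 9 further genes of the actin cytoskeleton and the cell cortex were followed in articular cartilage of young and adult mice, with and without cartilage injury. The 10 genes (Vim, Capg, Tmsb4x, Tagln, Tagln2, Acta2, Anxa1, Anxa2, Lgals1 and Lgals3) were matched by gene symbol among the 24532 genes of the expression table, and each was present once and above 0 in every library. The group was chosen by measured values of these same libraries: Vim went up with injury in young mice and down with injury in adult mice, and Capg was already high in adult sham cartilage. The values of Vim and Capg are therefore a description, and the other 8 genes, added for what their products do, were also named with earlier results of these libraries known.

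Gene expression was measured by RNA sequencing in 4 groups of C57BL/6 wild-type mice, namely sham and injured young mice and sham and injured adult mice. Young mice were 3 weeks old, whereas the age of the adult mice is given as 10 weeks in the study's methods and as 12 or 14 weeks in the sample labels. The methods describe a full-thickness cartilage injury (FTCI) of the femoral groove with cartilage taken 3 days later, while the sample titles name DMM surgery, a destabilization of the medial meniscus. The adult sham sample carries a label of days 3 to 14. Per the methods, 5 mice without or 10 mice with injury gave the cartilage for each library, and each group was 1 such pool. No difference below therefore has a replicate library, and a difference between groups cannot be told apart from a difference between pools. Outside these libraries, the paper reports qRT-PCR on other animals, where Capg and Vim were upregulated after injury in young relative to adult mice. None of the other members is named there. Expression values were deposited as FPKM, the fragments of a gene after division by the length of its transcript and the size of the library. A gene was said to rise or fall where FPKM + 1 differed by 2-fold or more, and log2 ratios below are those of FPKM + 1. Folds stated for single genes are ratios of FPKM.

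Vimentin is the intermediate filament of mesenchymal cells, and chondrocytes carry a dense vimentin network. When chondrocytes are grown on plastic they flatten, assemble actin stress fibres and lose their cartilage matrix genes, a change known as dedifferentiation that is accompanied by genes of fibroblasts and contractile cells. The proteins studied here act at different points of that cytoskeleton. Capg caps the fast-growing ends of actin filaments, and Tmsb4x (thymosin beta 4) holds actin monomers in reserve. Transgelin (Tagln), its relative Tagln2 and alpha smooth muscle actin (Acta2) bind or form actin filaments. The annexins bind membranes in the presence of calcium, and the galectins bind galactose-containing sugars inside and outside the cell. Vim, Capg, Tmsb4x, the annexins and the galectins are also abundant in macrophages and fibroblasts, and Acta2 and Tagln in smooth muscle and pericytes.

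All 8 genes of a chondrocyte marker list reached 1 FPKM in every library, with summed levels between 14490 and 31437 FPKM. The highest sum was that of adult sham cartilage, where Chad alone was at 20538 FPKM. Against young sham cartilage, 2 of the 8 markers were higher there and 4 lower, with a median log2 ratio of -1.24. The 10 most abundant genes made up 14.7% to 17.5% of the summed FPKM in 3 libraries and 26.5% in adult sham cartilage. Taken over the 10891 genes that reached 1 FPKM throughout, injury shifted the median log2 ratio by -0.04 in young and by 0.23 in adult mice. The median was -0.30 for adult against young sham cartilage and -0.07 between the injured libraries. Median-of-ratios scaling brought the same medians to between -0.06 and 0.07. From the steps between the lowest FPKM, the libraries held about 26100000 to 31100000 fragments if 1 step is 1 fragment. On that scale Tagln, the lowest member, rested on about 330 to 740 fragments per library and Vim on about 38000 to 110000.

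In young cartilage 6 of the 10 genes rose after injury and 1 fell, with a median log2 ratio of 1.24. Tmsb4x, Lgals1, Capg, Tagln2, Anxa1 and Vim rose, and Acta2 fell. Of 18181 genes above 0 in 1 or more libraries, 830 rose and 230 fell, which is 4.57% and 1.27%, with a median of 0.00. Without Vim and Capg, which the choice of the group used, 4 of 8 rose and 1 fell, with a median of 1.08. In adult cartilage 2 of the 10, Tmsb4x and Tagln2, rose after injury and 0 fell, with a median of 0.70 that was 0.37 under median-of-ratios and 0.31 under housekeeping scaling. In that comparison 6.9% of all genes rose and 1.46% fell, with a median of 0.14. The adult background depended on the scaling: the split of 1255 genes higher and 266 lower became 802 and 527 under median-of-ratios scaling and 762 and 599 under scaling to housekeeping genes.

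Before injury, the adult and the young level also differed. In adult sham cartilage Capg, Vim and Lgals3 were higher than in young sham cartilage by 2-fold or more and Acta2 was lower, which is 3 and 1 of 10 genes with a median log2 ratio of 0.60. Under median-of-ratios and housekeeping scaling 5 were higher and 1 lower, and the median was 1.04 and 1.12. Among all genes 2.66% were higher and 10.6% lower in adult sham cartilage, with a median of -0.15, and median-of-ratios scaling turned that split of 484 and 1934 genes into 1065 and 932. Without Vim and Capg, 1 of 8 genes was higher, and the median was 0.32. Between the injured libraries 0 of 10 genes were higher in adult cartilage and 1, Acta2, was lower, against 1.8% higher and 3.09% lower among all genes. The median log2 ratio of the 10 genes between the injured libraries was 0.01. The 2 injury comparisons and the 2 age comparisons share libraries, so that a high adult sham value enters the adult injury ratio and the sham age ratio at once.

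Together the 10 genes summed to 1925 FPKM in the young sham library and 4603 FPKM in the young injured one, with 3608 and 4310 FPKM in their adult counterparts. These sums were 0.391%, 0.863%, 0.717% and 0.917% of the summed FPKM of each library. Young sham cartilage stood lowest. Without Vim, one of the genes by which the group was chosen, the sums were 1281 and 3169 FPKM in young sham and injured and 1933 and 3222 FPKM in adult sham and injured cartilage, so that the sham libraries were then nearer to each other than to the injured ones.

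**Figure D1:**
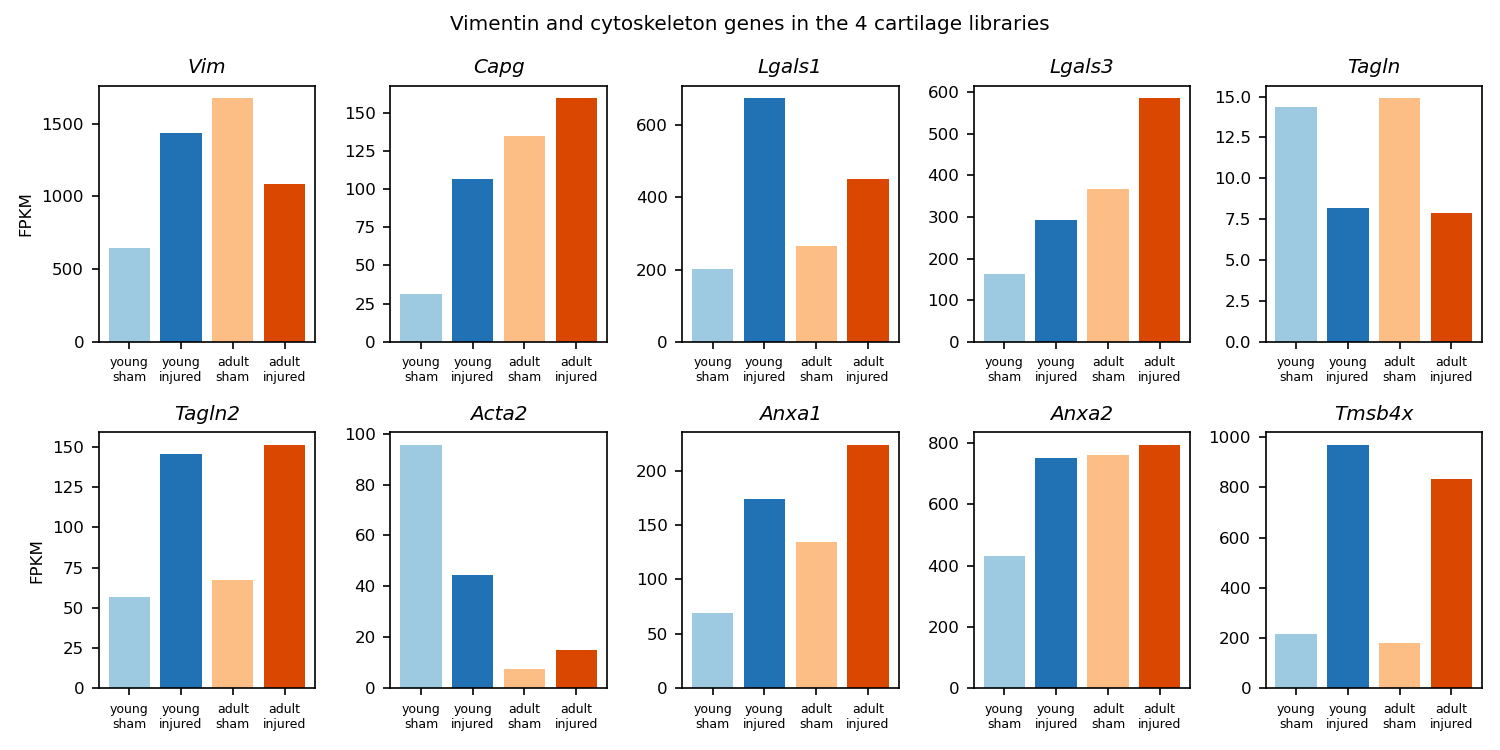
Expression of the 10 genes in the 4 cartilage libraries, 1 bar per library, in FPKM on a linear axis that starts at 0 and has its own range for each gene; 1 pooled library per group, so there are no error bars. Vim was highest in adult sham cartilage (1675 FPKM), Acta2 in young sham cartilage (95.7 FPKM), and Tmsb4x and Tagln2 were higher in both injured libraries than in both sham libraries.

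Vim (Entrez Gene 22352) lies on chromosome 2 at 13574311 to 13582826 in GRCm38.p6. It reached 644.0 FPKM without and 1434 FPKM with injury in the young mice, and 1675 FPKM without and 1087 FPKM with it in the adult mice. It ranked 126th, 47th, 34th and 47th among all genes of these libraries, in the same order. Young sham cartilage was lowest and adult sham cartilage highest, with both injured libraries between the sham libraries. Vim rose 2.23-fold after injury in young cartilage, a log2 ratio of 1.15, and was 1.54-fold lower after injury in adult cartilage, a log2 ratio of -0.62 that did not reach 2-fold. The adult value lay between -1.02 and -0.32 over the scalings and pseudocounts tried, and reached 2-fold only under scaling to housekeeping genes. Adult sham cartilage held 2.60 times the Vim level of young sham cartilage, while the injured libraries differed by 1.32-fold, a log2 ratio of -0.40 that was 0.00 under quantile normalization. Cytoplasmic beta actin, Actb, was measured at 601.7, 1169, 981.4 and 938.3 FPKM in young sham and injured and then in adult sham and injured cartilage. The ratio of Vim to Actb within a library was 1.07, 1.23, 1.71 and 1.16 in that order, and was highest in adult sham cartilage.

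The other genes of this class were counted next. Of 12 genes for other intermediate filaments, plectin and the lamins, 0 passed 2-fold after injury in young cartilage and 1 rose in adult cartilage, with medians of 0.29 and 0.02. The gene that rose was Lmnb1, a B-type lamin of the nuclear envelope, with a log2 ratio of 1.24 from 1.76 FPKM in adult sham to 5.53 FPKM in adult injured cartilage. Lmna, the A-type lamin, was the most abundant of the list and was measured at 82.1, 105.6, 146.6 and 153.5 FPKM in young sham and injured and in adult sham and injured cartilage. Des, the intermediate filament of muscle, was between 5.20 and 12.9 FPKM.

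No promoter sequence was available for Lgals1 and Tagln, which were not searched. For the other 8 of the 10 genes it was read from RefSeq on GRCm38.p6, in the 250 bases before 1 transcript start per gene. That start was the outer end of the gene for Vim, Anxa1, Anxa2, Lgals3 and Tagln2. For Acta2 it was base 34255373, 212 bases inside the gene coordinates printed below, and for Capg and Tmsb4x it also lay inside the gene. Motifs are shown for Vim, Anxa2 and Acta2, because Vim and Anxa2 had alike profiles and Acta2 moved the other way. The letters TATAAA on the strand of the gene were found in Vim, Anxa1 and Anxa2, and in 7.59% of 32851 promoters. The AP-1 letters TGACTCA or TGAGTCA, which are each other's complement and so cover both strands, were found in Anxa2 and in 4.46% of promoters. A CArG box, the binding motif of serum response factor that is known from muscle and actin genes, was found in none of the 8 genes without a mismatch, and in 1.47% of promoters. With up to 1 mismatch it occurred at 2 places in Acta2, and in 8.59% of promoters. The motifs did not overlap each other. Capitals mark the matches in these stretches, written 5′ to 3′ on the strand of the gene, where a match describes letters and not a bound site.
Vim, chr2:13574267-13574296, plus strand, TATA box: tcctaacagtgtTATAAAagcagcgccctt
Anxa2, chr9:69453653-69453682, plus strand, TATA box: aggatggggcgggTATAAAagccccaccca
Anxa2, chr9:69453576-69453605, plus strand, AP-1 letters: ttccaagttggaTGAGTCAcccagcagggt
Acta2, chr19:34255438-34255467, minus strand, CArG box with 1 mismatch: gtgctgaggtCCCTATATGGttgtgttaga
Acta2, chr19:34255388-34255417, minus strand, CArG box with 1 mismatch: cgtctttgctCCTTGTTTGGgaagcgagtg
The Vim match lies 32 to 27 bases before the start used and the TATA match of Anxa2 17 to 12 bases before it. The AP-1 letters of Anxa2 lie 95 to 89 bases before the start, and the Acta2 matches 84 to 75 and 34 to 25 bases before base 34255373, so that they fall within the coordinates of the gene.

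Capg (Entrez Gene 12332, chromosome 6, 72538282 to 72562983) encodes the gelsolin-like capping protein, which caps filament ends but does not cut filaments. It was at 31.5 FPKM in the young sham library and 106.7 FPKM in the young injured one, with 135.0 and 159.6 FPKM in their adult counterparts. The young sham library was far below the other libraries, and adult sham cartilage exceeded young injured cartilage. Capg rose 3.39-fold after injury in young cartilage and was 1.18-fold higher after injury in adult cartilage, with log2 ratios of 1.73 and 0.24. The adult value turned to -0.10 under median-of-ratios and to -0.15 under housekeeping scaling, so that its direction in adult injury depended on the scaling. Adult sham cartilage held 4.29 times the Capg level of young sham cartilage.

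Gsn, the parent gene of the gelsolin family, which severs and caps filaments, had another profile. It was measured at 210.1, 179.6, 2458 and 919.8 FPKM in young sham and injured and in adult sham and injured cartilage, with a log2 ratio of 3.54 between the sham libraries and of -1.42 after adult injury. The ratio of Capg to Gsn was 0.150, 0.594, 0.0549 and 0.174 in the same order, highest in young injured and lowest in adult sham cartilage. These ratios of gene pairs were chosen after the values were seen. Of the 12 genes of the gelsolin family and of barbed-end capping other than Capg, 0 passed 2-fold in young cartilage, and in adult cartilage Capza2 rose (log2 ratio 1.01) while Gsn fell.

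Tmsb4x (Entrez Gene 19241, chromosome X, 167207093 to 167213479) was at 216.3 FPKM without and 969.7 FPKM with injury in the young mice, and 180.6 FPKM without and 834.3 FPKM with it in the adult mice. Each injured library was above both sham libraries, and the ages were close to each other within each condition. Tmsb4x rose 4.48-fold in young and 4.62-fold in adult cartilage, with log2 ratios of 2.16 and 2.20, the largest rises of the 10 genes at either age. The difference between the ages in this response was -0.04 on the log2 scale, with a range of -0.26 to 0.28 over the settings tried. Relative to Actb, Tmsb4x was at 0.360, 0.830, 0.184 and 0.889 in young sham and injured and in adult sham and injured cartilage.

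Among 8 further genes that bind actin monomers or sever filaments, 0 passed 2-fold in young cartilage and 1 rose in adult cartilage, with medians of 0.15 and 0.64. The gene that rose was Tmsb10, a close relative of Tmsb4x, which was at 154.6, 274.1, 85.0 and 199.9 FPKM in young sham and injured and in adult sham and injured cartilage. Its log2 ratios after injury were 0.82 in young and 1.22 in adult cartilage. Cfl1 (cofilin, which severs filaments) had log2 ratios of 0.76 and 0.91 and Pfn1 (profilin, which feeds monomers to growing ends) of 0.64 and 0.75 at the respective ages.

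Tagln (Entrez Gene 21345, chromosome 9, 45929628 to 45936058), a marker of smooth muscle and of myofibroblasts, was at 14.4 FPKM in the young sham library and 8.16 FPKM in the young injured one, with 14.9 and 7.88 FPKM in their adult counterparts. Both injured libraries were below both sham libraries, and the sham libraries were nearly equal. Tagln was 1.76-fold lower after injury in young and 1.89-fold lower in adult cartilage, with log2 ratios of -0.75 and -0.84. The young value stayed under 2-fold in all settings, whereas the adult value passed it under median-of-ratios scaling, quantile normalization and housekeeping scaling, where it lay between -1.21 and -1.08.

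Tagln2 (Entrez Gene 21346, chromosome 1, 172500246 to 172507375), the form found outside muscle, was at 56.5 FPKM without and 145.5 FPKM with injury in the young mice, and 67.1 FPKM without and 151.5 FPKM with it in the adult mice. It stood opposite to Tagln, with both injured libraries above both sham libraries. Tagln2 rose 2.58-fold in young and 2.26-fold in adult cartilage, and its adult log2 ratio of 1.16 became 0.77 to 0.97 under median-of-ratios, quantile and housekeeping scaling. The ratio of Tagln2 to Tagln was 3.93 and 17.8 in the young sham and injured libraries and 4.50 and 19.2 in the adult sham and injured libraries. This ratio within a library is not changed by multiplying a library by 1 factor, though quantile normalization can change it. The pair was chosen after the values were seen, and its ratio was higher in the injured than in the sham library at both ages.

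Acta2 (Entrez Gene 11475, chromosome 19, 34240336 to 34255585) was at 95.7 FPKM in the young sham library and 44.6 FPKM in the young injured one, with 7.73 and 15.2 FPKM in their adult counterparts. Both young libraries were above both adult libraries, and Acta2 varied most of the 10 genes, by 12.4-fold. It fell 2.15-fold after injury in young cartilage and was 1.96-fold higher after injury in adult cartilage, with log2 ratios of -1.08 and 0.89. The adult value lay between 0.53 and 1.02 over the settings tried and reached 2-fold under rescaling to a common sum (TPM). Acta2 was 12.4-fold lower in adult than in young sham cartilage and 2.94-fold lower in adult than in young injured cartilage. The ratio of Acta2 to Tagln was 6.65, 5.46, 0.519 and 1.93 in young sham and injured and in adult sham and injured cartilage, so that these contractile genes were not in a fixed proportion.

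Other actins did not follow Acta2 throughout. Actg1, the second cytoplasmic actin, was at 532.0, 724.7, 893.0 and 640.9 FPKM in young sham and injured and in adult sham and injured cartilage. Acta1, the actin of skeletal muscle, was at 188.7, 181.6, 499.7 and 98.0 FPKM in these libraries and fell after adult injury, with a log2 ratio of -2.34. Actc1, the cardiac form, fell in young cartilage, from 17.5 to 6.64 FPKM, and was at 2.43 FPKM in adult sham and 0.74 FPKM in adult injured cartilage. A list of 12 skeletal muscle markers that includes Acta1 moved with Acta1: 9 of 12 fell after adult injury, 7 of 12 were higher in adult than in young sham cartilage, and their sum was 978.4, 770.5, 1873 and 520.8 FPKM.

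A list of 15 smooth muscle and pericyte markers stood at 140.9, 130.3, 140.9 and 163.6 FPKM in sum in young sham and injured and in adult sham and injured cartilage. Of its genes, 6 of 15 reached 1 FPKM in all libraries, 1 passed 2-fold after injury in young and 0 in adult cartilage. Myh11, the smooth muscle myosin, was between 0.22 and 0.56 FPKM, Cnn1 between 0.02 and 0.33 FPKM, and Myocd was listed at 0 in young injured cartilage and was at most 0.08 FPKM elsewhere. Other genes of the list, which are less particular to smooth muscle, were well above these: Cspg4 was between 33.2 and 60.1 FPKM, Smtn between 37.9 and 63.5 FPKM, Pdgfrb between 13.6 and 18.6 FPKM and Mylk between 6.48 and 13.7 FPKM. Cspg4 and Smtn carried most of the sum, and single genes differed between the sham libraries in either direction, with Mylk at 13.7 and 6.48 FPKM and Des at 5.20 and 12.9 FPKM in the young and the adult sham library. The part of these cells in the Acta2 and Tagln values was not tested. Among 21 contractile and stress fibre genes other than the 10, Myh9 (non-muscle myosin heavy chain) was at 15.3 and 31.8 FPKM in young sham and injured and at 15.1 and 31.2 FPKM in adult sham and injured cartilage, log2 ratios of 1.01 and 1.00 that lay just past and just short of 2-fold. Cald1 (caldesmon) and Tpm3 (tropomyosin) rose in adult cartilage, with log2 ratios of 1.67 and 1.17. The medians of that list were 0.24 and 0.10.

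**Figure D2:**
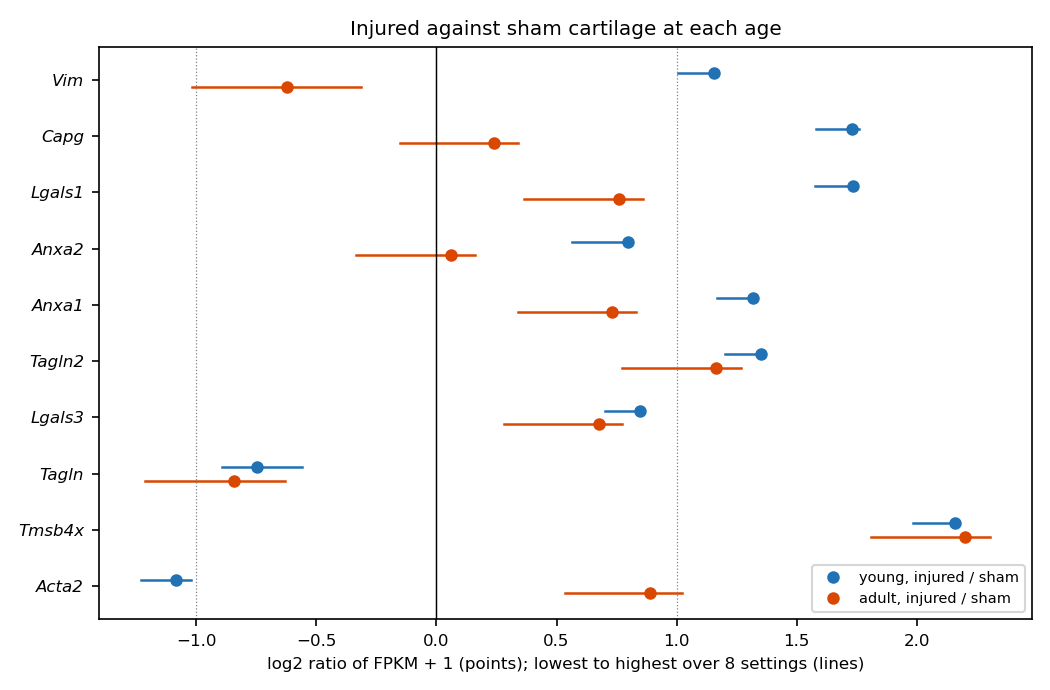
Log2 ratio of FPKM + 1, injured over sham, for each of the 10 genes in young and in adult cartilage; points are the values as reported, lines run from the lowest to the highest of 8 settings of scaling and pseudocount and are no measure of replicate error, and dotted lines mark 2-fold. Vim and Acta2 lie on opposite sides of 0 at the 2 ages (1.15 against -0.62 and -1.08 against 0.89), while the Tmsb4x values lie at 2.16 and 2.20.

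Anxa1 (Entrez Gene 16952, chromosome 19, 20373434 to 20390671), whose product is known for limiting neutrophil entry through formyl peptide receptors, was at 69.1 FPKM without and 173.8 FPKM with injury in the young mice, and 134.4 FPKM without and 223.8 FPKM with it in the adult mice. At each age the injured library was the higher one, and at each condition the adult library was. Anxa1 rose 2.51-fold after injury in young cartilage and was 1.66-fold higher after injury in adult cartilage, with log2 ratios of 1.32 and 0.73.

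Anxa2 (Entrez Gene 12306, chromosome 9, 69453683 to 69491792), which pairs with S100a10 at the plasma membrane, was at 433.2 FPKM in the young sham library and 753.1 FPKM in the young injured one, with 761.5 and 795.0 FPKM in their adult counterparts. The young sham library was lowest, and the other libraries differed little. It was 1.74-fold higher after injury in young and 1.04-fold higher in adult cartilage, and passed 2-fold in neither, with an adult log2 ratio between -0.33 and 0.16 over the settings tried. Anxa2 varied least of the 10 genes, by 1.84-fold. Its partner S100a10 was at 206.4, 296.1, 285.4 and 269.8 FPKM, which placed Anxa2 at 2.10, 2.54, 2.67 and 2.95 times the level of S100a10 in young sham and injured and in adult sham and injured cartilage.

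Of 14 further annexin, S100 and formyl peptide receptor genes above 0, 6 rose in young and 3 in adult cartilage and 0 fell, with medians of 0.77 and 0.24. S100a4 and S100a6, small calcium-binding proteins known from motile cells and fibroblasts, had the largest young rises, with log2 ratios of 3.15 and 2.36. S100a4 was at 31.3, 285.4, 344.1 and 458.4 FPKM and S100a6 at 84.7, 438.4, 1267 and 758.6 FPKM in young sham and injured and in adult sham and injured cartilage. As with Capg, both were lowest in young sham cartilage, and their adult log2 ratios after injury were 0.41 and -0.74. Anxa3 rose at both ages, with log2 ratios of 1.56 and 1.32, as did the receptor genes Fpr1 and Fpr2, which stayed under 5 FPKM in every library.

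Lgals1 (Entrez Gene 16852, chromosome 15, 78926725 to 78930465), encoding galectin-1, was at 202.1 FPKM without and 675.0 FPKM with injury in the young mice, and 265.3 FPKM without and 450.1 FPKM with it in the adult mice. Both injured libraries were above both sham libraries, and the young injured library was highest. Lgals1 rose 3.34-fold after injury in young cartilage and was 1.70-fold higher after injury in adult cartilage, with log2 ratios of 1.73 and 0.76.

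Lgals3 (Entrez Gene 16854, chromosome 14, 47373860 to 47386167), encoding galectin-3, a product of macrophages and of mature chondrocytes, was at 162.1 FPKM in the young sham library and 292.9 FPKM in the young injured one, with 365.9 and 585.0 FPKM in their adult counterparts. Here both adult libraries were above both young libraries. Lgals3 was 1.81-fold higher after injury in young and 1.60-fold higher in adult cartilage, and 2.26-fold higher in adult than in young sham cartilage. Between the injured libraries its fold of FPKM + 1 was 1.99, just inside the limit of 2-fold, and it passed that limit under TPM, median-of-ratios, quantile and housekeeping scaling. The ratio of Lgals3 to Lgals1 was 0.802 and 0.434 in young sham and young injured cartilage and 1.38 and 1.30 in adult sham and adult injured cartilage, so that galectin-1 transcripts led in the young and galectin-3 transcripts in the adult libraries. Of 7 other genes, galectins and the galectin-3 binding protein Lgals3bp, Lgals9 and Lgals3bp rose in young cartilage, with log2 ratios of 1.30 and 1.88, and 0 passed 2-fold in adult cartilage.

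**Figure D3:**
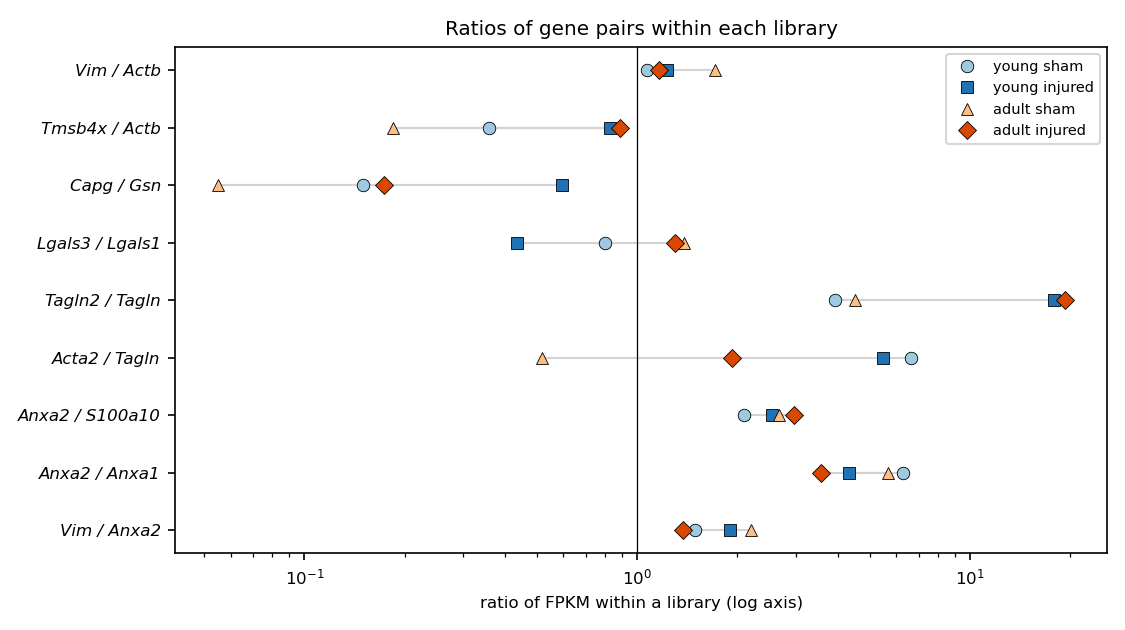
Ratio of FPKM between pairs of genes within each of the 4 libraries, on a log axis, 1 symbol per library with a grey line from the lowest to the highest; the pairs were chosen after the values were seen, and the ratios are those of FPKM as deposited. Tagln2 over Tagln was 17.8 and 19.2 in the injured and 3.93 and 4.50 in the sham libraries, and Lgals3 over Lgals1 was above 1 in both adult and below 1 in both young libraries.

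The response to injury can be set between the ages as the young log2 ratio minus the adult log2 ratio. It was 1.78 for Vim, 1.49 for Capg, 0.97 for Lgals1, 0.73 for Anxa2 and 0.59 for Anxa1. For Lgals3, Tagln2, Tagln and Tmsb4x it was 0.17, 0.19, 0.09 and -0.04, and for Acta2 it was -1.97. Over the settings tried, the differences of Vim (1.36 to 2.10), Capg (1.29 to 1.81), Lgals1 (0.76 to 1.30), Anxa2 (0.52 to 1.06), Anxa1 (0.38 to 0.91) and Acta2 (-2.23 to -1.68) kept their sign. The ranges of Lgals3, Tagln2, Tagln and Tmsb4x included 0. No test of these differences was possible with 1 library per group.

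Genes that shared the profile of Vim or Capg were looked up among the 1225 genes averaging 50 FPKM or more, by the distance between profiles of log2(FPKM + 1) centred on each gene's mean over the 4 libraries. Nearest to Vim were Tppp3 (distance 0.44), Emp3 (0.50), Lamtor4 (0.51), Actb (0.51) and Plp2 (0.52), and the next was Anxa2 (0.55). Tppp3, a tubulin polymerization-promoting protein known from tendon and synovial lining, was at 24.7, 70.0, 57.7 and 53.7 FPKM in young sham and injured and in adult sham and injured cartilage. Tmsb4x was the 1112th gene from Vim. Nearest to Capg were H2-D1 (distance 0.20), a class I histocompatibility gene, and Enpp2 (0.32), encoding autotaxin, followed by Fxyd5 (0.58), Tspan4 (0.63) and Fth1 (0.67). H2-D1 had 53.1 and 161.8 FPKM in young sham and injured and 186.1 and 237.8 FPKM in adult sham and injured cartilage. Of the 10 genes, Lgals3 stood 7th and Anxa1 12th from Capg. With 4 points per gene these distances describe the libraries.

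**Figure D4:**
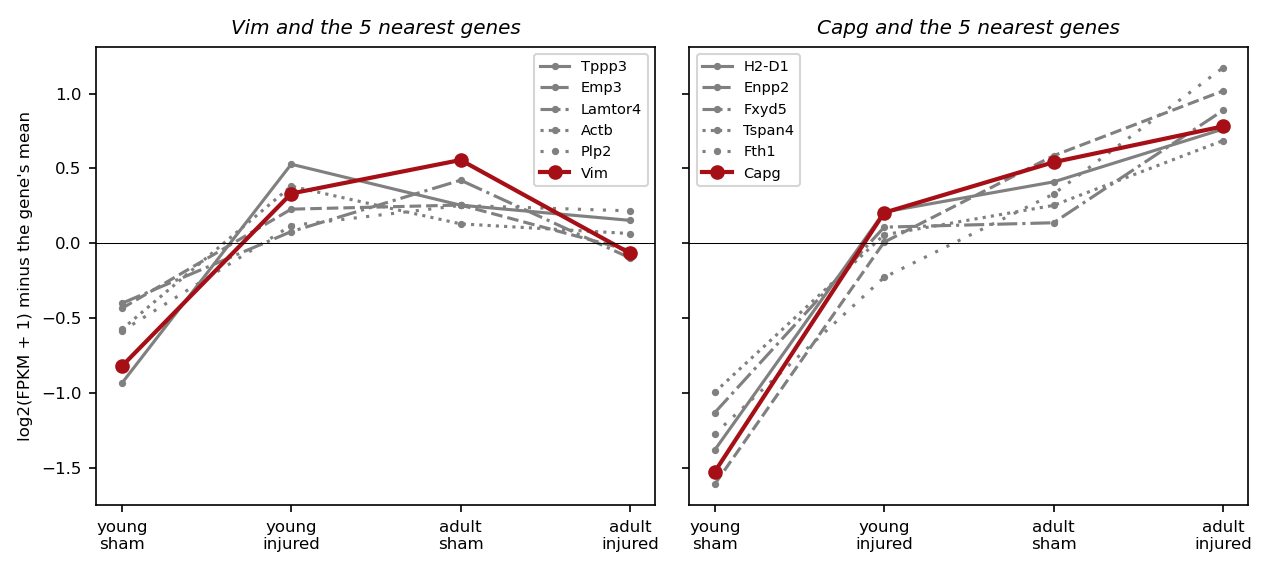
Profiles of Vim (left) and Capg (right) in red with the 5 nearest of 1225 genes in grey, as log2(FPKM + 1) minus the gene's own mean over the 4 libraries; lines join libraries only to guide the eye. Vim and its neighbours were lowest in young sham cartilage, and Capg and its neighbours were lowest in young sham and highest in adult injured cartilage.

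Several of the 10 genes are shared with cells other than chondrocytes, and marker lists of such cells were set beside them. All 12 macrophage markers rose after injury at both ages, with medians of 3.06 and 2.21. Their sum was 221.9 FPKM without and 2084 FPKM with injury in the young mice, and 341.9 FPKM without and 1839 FPKM with it in the adult mice, and 11 of 12 reached 1 FPKM in every library, with none at 0. The injured libraries therefore stood above the sham libraries for the macrophage list, as they did for Tmsb4x, Tagln2, Lgals1 and Anxa1, whereas Vim, Capg, Lgals3 and Anxa2 were higher in adult sham than in young injured cartilage. Between the sham libraries 5 of 12 macrophage markers were higher in adult cartilage and 0 lower, with a median log2 ratio of 0.76. The part of macrophage RNA in any of these differences was not tested. The sum of 9 fibroblast and synovium markers was 2615, 6489, 2525 and 8897 FPKM in young sham and injured and in adult sham and injured cartilage. Of these 9 markers, 4 rose and 0 fell in young cartilage, and 5 rose and 1, Dpt, fell in adult cartilage. The sum of 10 neutrophil markers was 1228, 2502, 1622 and 1958 FPKM, and that of 8 endothelial markers 29.99, 99.0, 37.8 and 91.1 FPKM. The sum of 7 osteoblast markers was 622.8 and 922.9 FPKM in the young and 5563 and 5545 FPKM in the adult sham and injured libraries, and 5 of 7 were higher in adult sham cartilage, where Vim, Capg and Lgals3 were higher too. Erythroid markers, 8 in number, summed to 9677, 18444, 6956 and 3031 FPKM. Their part was not tested either, and in bulk samples fewer cells of a type and less RNA per cell cannot be told apart.

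Actin regulators of branched networks and of leukocytes moved most among the lists of cytoskeleton genes. Of 13 such genes 6 rose in young and 7 in adult cartilage and 0 fell, with medians of 0.75 and 1.18. Among all genes 4.57% rose in young and 6.9% in adult cartilage. Lcp1 (L-plastin, the filament bundler of leukocytes) was at 11.4, 56.4, 4.08 and 46.0 FPKM and Coro1a (coronin of leukocytes) at 26.9, 83.9, 23.8 and 61.8 FPKM in young sham and injured and in adult sham and injured cartilage. Fermt3 and Plek, also known from blood cells, rose at both ages, and Arpc1b, a subunit of the Arp2/3 complex present in many cells, rose in young cartilage with a log2 ratio of 1.03. Of 15 genes of focal adhesions and filament crosslinking 0 passed 2-fold in young cartilage, and Fscn1 (fascin) and Vasp rose in adult cartilage, with log2 ratios of 1.68 and 1.09. Of 6 genes for serum response factor and its partners, Srf was between 5.28 and 6.95 FPKM, and Fhl2 fell after adult injury, with a log2 ratio of -1.50. Tagln3, the neuronal relative of Tagln, was below 1 FPKM in all libraries.

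Of 87 genes in the lists of intermediate filaments, actins, capping, monomer binding, branched networks, contractile genes, focal adhesions and Tagln3, without the 10 genes and without serum response factor and its partners, 7 rose and 1 fell in young cartilage and 14 rose and 2 fell in adult cartilage, with medians of 0.26 and 0.22. Among all genes 4.57% rose and 1.27% fell in young cartilage, and 6.9% rose and 1.46% fell in adult cartilage. Over the 10891 genes that reached 1 FPKM throughout, the medians were -0.04 and 0.23. The adult median of these lists was thus close to that of genes in general. The lists were drawn up with earlier results of these libraries known, and their counts are not independent evidence. Their adult counts are those of the FPKM as deposited, without the shift that median-of-ratios scaling brings to all genes.

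Genes that mark the chondrocyte and the fibroblast state were set beside the 10 genes. Of 16 cartilage genes that are lost on dedifferentiation in culture, 0 rose and 2 fell in young cartilage, with a median of -0.30. In adult cartilage 5 rose and 1 fell, with a median of 0.55. Prg4 (lubricin of the cartilage surface) fell in young cartilage from 2049 to 421.3 FPKM, and Matn1 (matrilin-1) from 1661 to 823.4 FPKM. Acan (aggrecan) was at 405.3 and 487.1 FPKM in young sham and young injured cartilage and rose from 214.4 to 559.0 FPKM in adult cartilage. Its log2 ratios after injury were 0.26 in young and 1.38 in adult cartilage, from 1 pool per group. By qRT-PCR, in contrast, the paper reports that aggrecan fell early after injury in young mice and did not change significantly in adult mice. Col2a1, the main collagen of cartilage, was at 9349, 7903, 3173 and 3750 FPKM in young sham and injured and in adult sham and injured cartilage. The adult injury median includes the shift of 0.23 that was measured over all genes in that comparison. Between the sham libraries, 2 of the 16 genes were higher and 11 lower in adult cartilage, with a median log2 ratio of -1.37. Among all genes 2.66% were higher and 10.6% lower there.

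Of 13 fibroblast genes that are gained on dedifferentiation, among them S100a4, 6 rose in young and 6 in adult cartilage and 0 fell, with medians of 0.53 and 0.99. Fn1 (fibronectin) went from 226.3 to 1869 FPKM with injury in young mice and from 441.8 to 3803 FPKM in adult mice. Col1a1 rose with log2 ratios of 1.60 and 1.73 and Postn (periostin) with 2.38 and 1.97. Among the 10 genes, Tmsb4x and Tagln2 likewise rose at both ages, Tagln2 in adult cartilage only under some scalings, whereas Acta2 and Tagln, the contractile markers, passed 2-fold upward at neither age except Acta2 in adult cartilage under TPM.

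**Figure D5:**
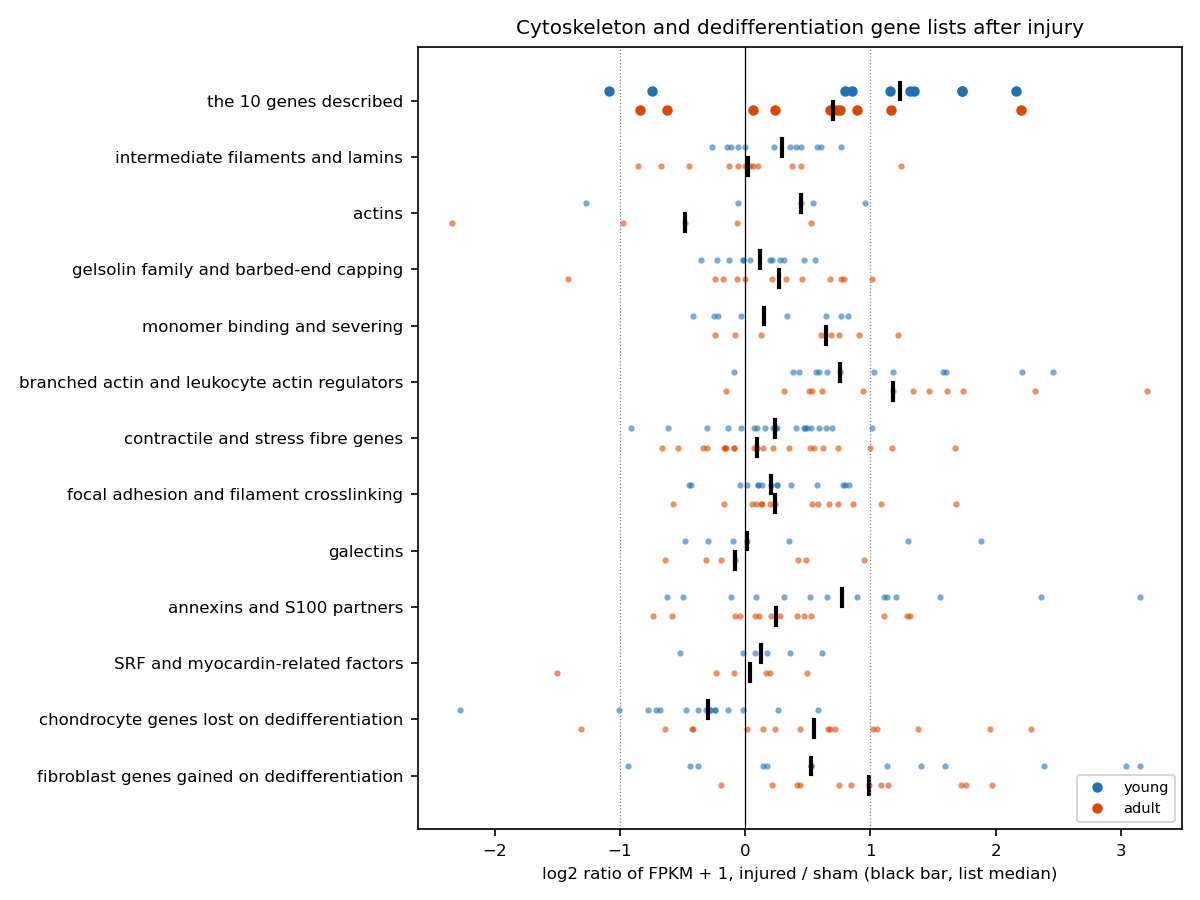
Log2 ratio of FPKM + 1, injured over sham, for every gene of each list in young and adult cartilage, 1 dot per gene; black bars are list medians and dotted lines mark 2-fold. The median of the 10 genes was 1.24 for the young and 0.70 for the adult pair of libraries, the regulators of branched actin and leukocyte actin 0.75 and 1.18, and the cartilage genes lost on dedifferentiation -0.30 and 0.55.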

How the data were processed

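The authors prepared stranded poly-A libraries from pooled cartilage and sequenced paired ends of 100 bases. The submitters' processing notes name HISAT2 2.1.0, HISAT, STAR, SAMtools, StringTie 1.3.4d and the build mm10, without a role or order. The authors deposited FPKM per gene for 4 libraries, each from 1 pool of mice.

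Log2 ratios of FPKM + 1 were calculated over 18181 genes above 0 in 1 or more libraries, and a fold of 2 was taken as the limit. With 1 library per group, no p-value, standard deviation or interval was calculated. The members and the lists (13 of pathways, 9 of cell types) were chosen with earlier results of these data known. Named were the 10 members, up to 6 genes per pathway list with a mean of at least 5 FPKM that passed 2-fold after injury, up to 4 further abundant genes per list, and the 5 genes nearest to Vim and to Capg; other names, among them Fpr1, Fpr2, Tagln3 and the genes of the smooth muscle and pericyte list, were chosen after their values were seen. Tried as alternatives were pseudocounts of 0.1 and 5 FPKM, rescaling to a common sum (TPM), median-of-ratios scaling, quantile normalization, scaling to 12 housekeeping genes, limits of 1.5-fold and 3-fold, filters on low values, and the 8 members other than Vim and Capg; scaling by the sum without the 10 most abundant genes was chosen after seeing the data. Genes were matched by symbol, and coordinates and promoters came from RefSeq tables of GRCm38.p6. At most 1.74% of the 31-base words of a member's transcripts (Capg) occurred in another gene. Scripts were tested on simulated data and ran on Python 3.11.15, numpy 2.4.6, pandas 2.3.3 and matplotlib 3.10.9.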

Additional observations from a re-analysis of the deposited data

Results flagged for a closer look

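For 2 of the 10 genes the libraries differed after injury in opposite directions at the 2 ages, by over 1.5-fold each way as deposited. For Vim the injured over sham log2 ratio was 1.15 for the young and -0.62 for the adult mice, a young minus adult value of 1.78. For Acta2 it was -1.08 for the young and 0.89 for the adult mice, a young minus adult value of -1.97. In adult injury, Vim was under 1.5-fold with -0.53 under TPM and -0.32 under quantile normalization, and Acta2 with 0.58 under median-of-ratios and 0.53 under housekeeping scaling. In these libraries the difference was not tested for either gene, since each group was 1 library. For Vim, the paper reports qRT-PCR on other animals, with upregulation after injury in young relative to adult mice. Acta2 is not among the genes named there. Vim is one of the genes by which the group was chosen.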

How the results depend on the processing

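No replicate could be left out and no paired analysis was possible because each group was 1 library. Of 280 values of single genes under the scalings and pseudocounts, 244 kept their direction and their side of 2-fold, 17 passed 2-fold anew, 3 (Tagln2 in adult injury) no longer did, and 16 below 2-fold changed sign or came to 0. Under alternative limits, the 6 genes higher in young injury became 8 at 1.5-fold and 3 at 3-fold, and the 1 lower became 2 at 1.5-fold and 0 at 3-fold. In adult injury the 2 higher became 1 under median-of-ratios, quantile and housekeeping scaling and at 3-fold, 3 under TPM and 6 at 1.5-fold. The 0 lower became 1 under median-of-ratios scaling and 1 under quantile normalization (Tagln), and 2 under housekeeping scaling (Tagln and Vim) and at 1.5-fold. In adult against young sham cartilage, the 3 higher became 5 under median-of-ratios and housekeeping scaling, under the sum without the most abundant genes (chosen after seeing the data) and at 1.5-fold, 4 under quantile normalization, and 1 at 3-fold or without Vim and Capg. Between the injured libraries, the 0 higher became 1 (Lgals3) under TPM, median-of-ratios, quantile and housekeeping scaling, the sum without the most abundant genes and at 1.5-fold, and the 1 lower became 0 at 3-fold. The share of all genes past 2-fold ran over the settings from 1.89% to 9.99% higher and 0.435% to 4.22% lower in young injury, 2.39% to 15.9% and 0.704% to 3.61% in adult injury, 1.24% to 6.9% and 3.69% to 21.1% between sham libraries, and 0.787% to 4.64% and 1.16% to 8.27% between injured libraries. Fragment counts were not recovered, so the counting error of Tagln and of adult Acta2, the lowest values, is unknown.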
